A study of Rattus norvegicus with 6 samples.

Results

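The sirtuins are the mammalian family of NAD+-dependent lysine deacylases, encoded by Sirt1 to Sirt7. All 7 genes were found by their symbols among the 30560 gene rows of the deposited rat tables, with 1 row each. The data came from poly(A) RNA-seq of wild-type rat mesenchymal stem cells, stromal progenitors of bone, cartilage and fat. All cells had been kept in medium with 10% serum and exposed for 24 hours to 200 nM doxorubicin, an anthracycline that damages DNA and that the submitters used to bring on senescence. Fresh medium for 6 days followed, with 100 µg/ml of a preparation named SMNV in the SMNV group (3 libraries) and with vehicle in the Dox group (3 libraries). The labels do not expand the name SMNV, do not say what the vehicle was and do not say whether libraries came from separate cultures, so p-values measure the spread between these libraries, which may be technical. No library came from cells without doxorubicin, so sirtuin levels could not be set beside those of untreated cells.

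Sirtuins remove acetyl and other acyl groups from lysines and consume NAD+ with each turn, which ties their activity to the cell's NAD+ supply. SIRT1, SIRT6 and SIRT7 work mainly in the nucleus, SIRT2 mainly in the cytosol, and SIRT3, SIRT4 and SIRT5 in mitochondria. In mesenchymal stem cells sirtuins, above all SIRT1, SIRT3 and SIRT6, are studied for their part in ageing, DNA repair and bone formation.

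The start regions of 6 of the 7 genes, all but Sirt6, were matched in RefSeq's promoter table of the rat build GRCr8, where each entry runs from 250 bases before to 50 bases after the annotated start. Those of Sirt1, the member that fell in SMNV cells, and of Sirt5, the member with the second highest transcript level, which rose, are shown to let the base composition and motifs of a lowered and a raised gene be read side by side. The Sirt1 window is chr20:25305703-25306002 on the plus strand and the Sirt5 window is chr17:21543007-21543306 on the minus strand, both printed 5′ to 3′ as transcribed. Capitals mark the E-box letters CACGTG in Sirt1 and an E2F-type site, TTTGCCGC, in Sirt5.
Sirt1: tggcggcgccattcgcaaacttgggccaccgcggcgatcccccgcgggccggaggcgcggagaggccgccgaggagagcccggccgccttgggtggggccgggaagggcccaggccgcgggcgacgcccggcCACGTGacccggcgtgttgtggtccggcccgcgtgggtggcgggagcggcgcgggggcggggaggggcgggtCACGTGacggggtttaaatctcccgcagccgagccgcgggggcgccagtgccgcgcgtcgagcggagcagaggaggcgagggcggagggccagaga
Sirt5: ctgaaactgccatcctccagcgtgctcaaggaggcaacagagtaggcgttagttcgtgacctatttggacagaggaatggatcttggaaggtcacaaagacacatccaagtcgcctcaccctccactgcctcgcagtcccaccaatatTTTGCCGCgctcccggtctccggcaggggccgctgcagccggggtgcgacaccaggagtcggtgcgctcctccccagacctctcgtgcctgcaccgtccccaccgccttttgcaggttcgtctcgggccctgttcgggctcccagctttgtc

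The Sirt1 window was 78.7% G or C with 47 CpG pairs, and the Sirt5 window was 61.7% G or C with 20 CpG pairs. The median of all 33469 rat promoter windows was 51.7% G or C and 7 CpG pairs. Sirt3 (63.3%, 20 CpG pairs), Sirt7 (55.0%, 20 CpG pairs), Sirt2 (51.7%, 19 CpG pairs) and Sirt4 (49.7%, 23 CpG pairs) were the other windows matched, and all 6 windows held more CpG pairs than the median. The motifs, of 8 kinds, were searched for on both strands. Sirt1 alone of the 6 held the E-box CACGTG, with matches beginning at -118 and -46 from the start; 6.42% of all windows held at least 1 and 0.520% at least 2. The E2F-type match of Sirt5 began at -102, and 2.14% of all windows held TTTCGCGC, TTTGGCGC, TTTCCCGC or TTTGCCGC. Sirt7 held the ETS letters CCGGAAG at -73 and -3, found at least once in 8.75% of windows, and the NRF1 letters GCGCATGCG at -46, found in 1.52%; in RefSeq the neighbouring gene Mafg ends inside that Sirt7 window. GC boxes (GGGCGG, 33.1% of windows) were found in Sirt1, Sirt3 and Sirt7, and CCAAT (37.5% of windows) in Sirt2, Sirt3 and Sirt5. No printed match overlapped another kind of motif searched, and the TATA letters TATAAA (14.2% of windows) and the FOXO letters GTAAACA (3.78% of windows) were in none of the 6. A match is a run of letters and not a measured binding site.

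Each library held between 18640909 and 21506967 estimated counts, spread over 15102 to 15347 detected genes. Log2 CPM (counts scaled to a common library total) correlated at 0.989 to 0.992 within a group and at 0.947 to 0.969 between the groups. The 10 leading genes together accounted for 17.8% to 19.4% of an SMNV library and 14.4% to 15.2% of a Dox library. All 10 mesenchymal stromal markers looked for were tested, and 4 were higher (40%) and 3 lower (30%) in SMNV. Among all tested genes, 30.5% were higher and 29.9% lower. The markers summed to 70331 to 85461 CPM in SMNV and 39125 to 45772 CPM in Dox libraries. Col1a1 and Col1a2 made up most of these sums (64908 to 80129 CPM in SMNV and 32212 to 39272 CPM in Dox libraries), and the other 8 markers summed to less in SMNV (5333 to 5464 CPM) than in Dox libraries (6500.3 to 6913 CPM). Of 8 haematopoietic markers, Ptprc, Cd34 and Itgam had no count in any library, and the summed level of all 8 was 6.46 to 7.55 CPM in SMNV and 7.24 to 8.82 CPM in Dox libraries. Of 6 endothelial markers, Cdh5 and Kdr had no count, with sums over all 6 of 1.31 to 2.50 CPM in SMNV and 1.42 to 2.97 CPM in Dox libraries. Smooth muscle markers, which stromal cells also express, summed to 3115 to 3283 CPM in SMNV and 2929 to 3355 CPM in Dox libraries. In bulk RNA, fewer cells of a type and less RNA per cell cannot be told apart.

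Comparing SMNV with Dox asks how the preparation changed sirtuin transcript levels after doxorubicin. Sirt6 rose 3.57-fold, Sirt4 1.90-fold, Sirt7 1.64-fold, Sirt5 1.52-fold and Sirt2 1.34-fold in SMNV cells, while Sirt1 fell to 0.683 of its Dox level and Sirt3 did not pass the test. Of the 7 members, all were abundant enough to be tested, 5 were higher, 1 was lower and 1 was not called by edgeR's quasi-likelihood test at an adjusted p of 0.05. Among all 12614 tested genes the same test called 60.4%, with 30.5% higher and 29.9% lower in SMNV. The median log2 fold change, SMNV over Dox, was 0.61 over the sirtuins and -0.01 over all tested genes. The CPM of the SMNV and Dox libraries did not overlap for 6 of the 7 members, against 66.9% of all tested genes. Sirt6 was the one member called at least 2-fold higher, a size that 8.67% of tested genes reached.

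**Figure D1:**
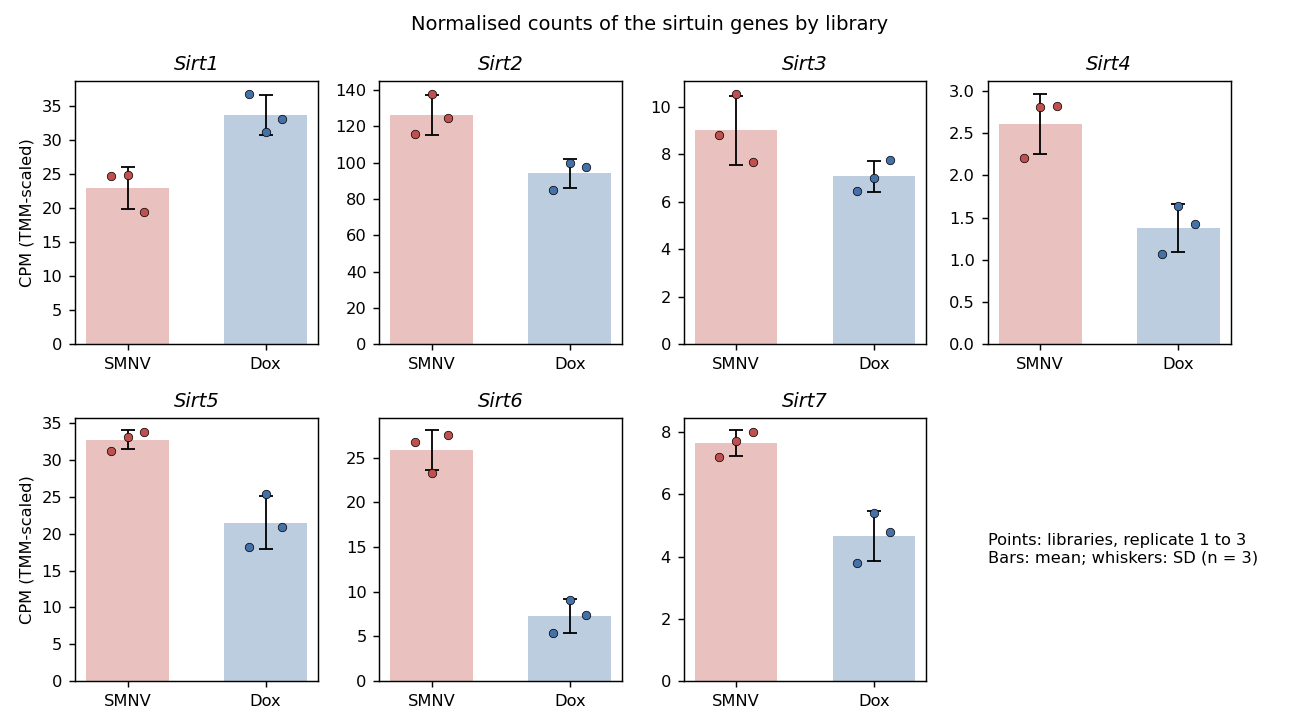
CPM (TMM-scaled) of each sirtuin gene, with SMNV left of Dox; points are the 3 libraries of a group in replicate order, bars the mean and whiskers the SD. The groups are apart for every gene but Sirt3, Sirt1 is the gene with the lower SMNV bar, and Sirt6 has the largest ratio of means (25.9 against 7.27 CPM).

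Sirt6 encodes a chromatin-bound deacetylase of histone H3 that acts in DNA repair, telomere upkeep and the repression of glycolytic and NF-kappaB target genes. It was measured at 26.7, 23.3 and 27.5 CPM in SMNV libraries, against 5.36, 9.10 and 7.34 CPM in Dox libraries. The lowest SMNV library thus stood well above the highest Dox library. The means were 25.9 ± 2.22 CPM in SMNV and 7.27 ± 1.87 CPM in Dox (SD, n = 3 each), and the log2 fold change was 1.83 ± 0.15 (SE; edgeR adjusted p = 1.18e-07). That fold change was higher than those of 98.7% of tested genes.

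Sirt1 encodes the best studied family member, a nuclear deacetylase of FOXO factors, PGC-1alpha and the NF-kappaB subunit RELA. It was measured at 24.7, 24.9 and 19.5 CPM in SMNV libraries, against 36.9, 31.1 and 33.2 CPM in Dox libraries. Every SMNV library lay below every Dox library, and SMNV 3 was the lowest of all. The means were 23.0 ± 3.09 CPM in SMNV and 33.7 ± 2.90 CPM in Dox (SD, n = 3 each), with a log2 fold change of -0.55 ± 0.11 (SE; edgeR adjusted p = 4.09e-04).

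Sirt7 encodes the nucleolar member, which associates with RNA polymerase I and ribosomal DNA. It was measured at 7.19, 7.73 and 8.02 CPM in SMNV libraries, against 3.80, 5.42 and 4.78 CPM in Dox libraries. The SMNV libraries lay close together and above all Dox libraries. The means were 7.65 ± 0.417 CPM in SMNV and 4.67 ± 0.814 CPM in Dox (SD, n = 3 each), with a log2 fold change of 0.71 ± 0.16 (SE; edgeR adjusted p = 0.00137).

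Sirt2 encodes the cytosolic member, an alpha-tubulin deacetylase that enters the nucleus during mitosis. It was measured at 116, 138 and 124 CPM in SMNV libraries, against 84.8, 99.5 and 97.8 CPM in Dox libraries. The groups did not overlap, though SMNV 1 stood nearer to the upper Dox libraries than the other SMNV libraries did. The means were 126 ± 11.1 CPM in SMNV and 94.0 ± 8.02 CPM in Dox (SD, n = 3 each), with a log2 fold change of 0.42 ± 0.08 (SE; edgeR adjusted p = 2.99e-04).

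Among the mitochondrial members, Sirt5, whose product removes succinyl, malonyl and glutaryl groups, was measured at 31.3, 33.2 and 33.8 CPM in SMNV libraries, against 18.2, 25.4 and 21.0 CPM in Dox libraries. The groups did not overlap, and the Dox libraries were the more spread. The log2 fold change of Sirt5 was 0.61 ± 0.11 (SE; edgeR adjusted p = 2.23e-04), with means of 32.8 ± 1.30 CPM in SMNV and 21.5 ± 3.64 CPM in Dox (SD, n = 3 each). Sirt4, whose product acts on glutamate and lipid metabolism as a lipoamidase and ADP-ribosyltransferase, was the scarcest member. It had 45, 60 and 56 counts in SMNV libraries, against 22, 31 and 29 counts in Dox libraries, or 2.20, 2.81 and 2.82 CPM in SMNV against 1.07, 1.63 and 1.43 CPM in Dox. The groups did not overlap, and at these counts the log2 fold change of 0.92 ± 0.26 (SE; edgeR adjusted p = 0.00611) was the least precise of the 7.

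Sirt3 encodes the main mitochondrial deacetylase, which acts on superoxide dismutase, isocitrate dehydrogenase and fatty acid oxidation enzymes. It was measured at 8.81, 10.5 and 7.66 CPM in SMNV libraries, against 6.44, 7.0 and 7.74 CPM in Dox libraries. The groups overlapped, since SMNV 3 lay below Dox 3. The log2 fold change of 0.35 ± 0.15 (SE) did not pass edgeR's test (adjusted p = 0.0525, unadjusted p = 0.0320), and without SMNV 3 it was 0.47 with an edgeR adjusted p of 0.0212.

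In a count made after the values were seen, Dox 1 was the Dox library farthest from the SMNV mean for all 7 members. It was also the farthest for 67.0% of the 7614 genes called in either direction, against 13.5% for Dox 2 and 19.5% for Dox 3. Without Dox 1 the log2 fold changes were 1.65 for Sirt6, 0.77 for Sirt4, 0.58 for Sirt7, 0.50 for Sirt5, 0.35 for Sirt2, 0.29 for Sirt3 and -0.48 for Sirt1. All 7 were nearer to 0 than with Dox 1, which follows from leaving out the farthest library. The same 6 members passed, where the fit over all 6 libraries had called 60.4% of tested genes.

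Gene length moved with the direction of change across the tested genes. Among the 3287 tested genes of 1001 to 2000 bases, which include Sirt2 (1800), Sirt4 (1448), Sirt5 (1537), Sirt6 (1647) and Sirt7 (1717), 35.4% were higher and 19.5% lower in SMNV. Among the 3480 tested genes of 3001 to 5000 bases, which include Sirt1 (3940), 27.9% were higher and 35.3% lower. With each library's smooth trend on length removed, the log2 fold changes were 1.71 for Sirt6, 0.78 for Sirt4, 0.59 for Sirt7, 0.47 for Sirt5, 0.30 for Sirt2, 0.26 for Sirt3 and -0.54 for Sirt1, and the same 6 members passed in a fit that called 61.6% of tested genes.

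**Figure D2:**
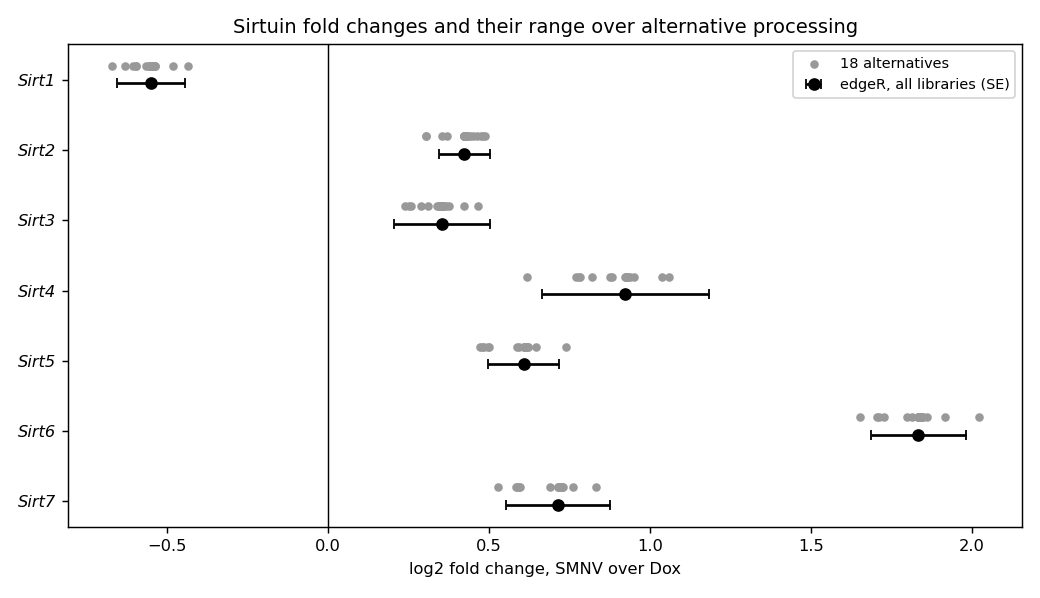
Log2 fold change, SMNV over Dox, of each sirtuin gene; black points and whiskers are the edgeR estimate and its SE over all 6 libraries, and grey points are the same value under 18 alternative settings. All points lie right of 0 except those of Sirt1, which lie between -0.67 and -0.43, and those of Sirt6 lie between 1.65 and 2.02.

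Levels between genes were compared per length, in the TPM that the authors deposited, which are scaled by transcript length and library. Sirt2 had the highest level in all 6 libraries, at 96.3, 109 and 101 TPM in SMNV and 64.9, 76.6 and 77.7 TPM in Dox libraries. Sirt5 followed, at 42.7, 42.8 and 43.9 TPM in SMNV and 26.0, 36.4 and 30.1 TPM in Dox libraries. Sirt4 had the lowest level in all 6, at 3.20, 3.86 and 3.95 TPM in SMNV and 1.63, 2.47 and 2.06 TPM in Dox libraries. The order of the means in SMNV was Sirt2, Sirt5, Sirt6, Sirt1, Sirt3, Sirt7 and Sirt4, where Sirt1 and Sirt3 overlapped (11.4 ± 1.88 and 10.7 ± 1.77 TPM, SD, n = 3) and the other neighbours did not. The order in Dox was Sirt2, Sirt5, Sirt1, Sirt6, Sirt3, Sirt7 and Sirt4, where Sirt6 and Sirt3 overlapped (8.41 ± 2.12 and 8.41 ± 0.508 TPM, SD, n = 3) and the other neighbours did not.

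Sirt6 and Sirt1 changed places. Sirt6 had 32.1, 25.9 and 31.2 TPM in SMNV libraries, against 6.24, 10.5 and 8.52 TPM in Dox libraries. Sirt1 had 12.7, 12.3 and 9.25 TPM in SMNV libraries, against 19.8, 16.6 and 17.9 TPM in Dox libraries. The ratio of Sirt6 to Sirt1 TPM was 2.53, 2.11 and 3.38 in SMNV libraries, against 0.315, 0.631 and 0.477 in Dox libraries, so Sirt6 was the more abundant of the pair in every SMNV library and the less abundant in every Dox library.

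The 7 genes summed to 209 ± 4.73 TPM in SMNV and 147 ± 13.9 TPM in Dox (SD, n = 3 each). Of that sum, Sirt6 made up 14.2% ± 1.91 in SMNV and 5.68% ± 0.937 in Dox, and Sirt1 made up 5.45% ± 0.883 in SMNV and 12.5% ± 2.37 in Dox (SD, n = 3 each). Neither share overlapped between the groups; the two-sided exact permutation p was 0.1 for each, the smallest that 3 against 3 libraries can give. The shares of the other 5 members overlapped between the groups. Sirt2 made up 48.6% ± 1.90 in SMNV and 49.8% ± 1.49 in Dox (exact permutation p = 0.5), and Sirt5 made up 20.6% ± 0.617 in SMNV and 20.9% ± 1.83 in Dox (exact permutation p = 1). Sirt3 held 5.12% in SMNV and 5.75% in Dox, Sirt7 4.20% in SMNV and 3.96% in Dox, and Sirt4 1.75% in SMNV and 1.39% in Dox.

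**Figure D3:**
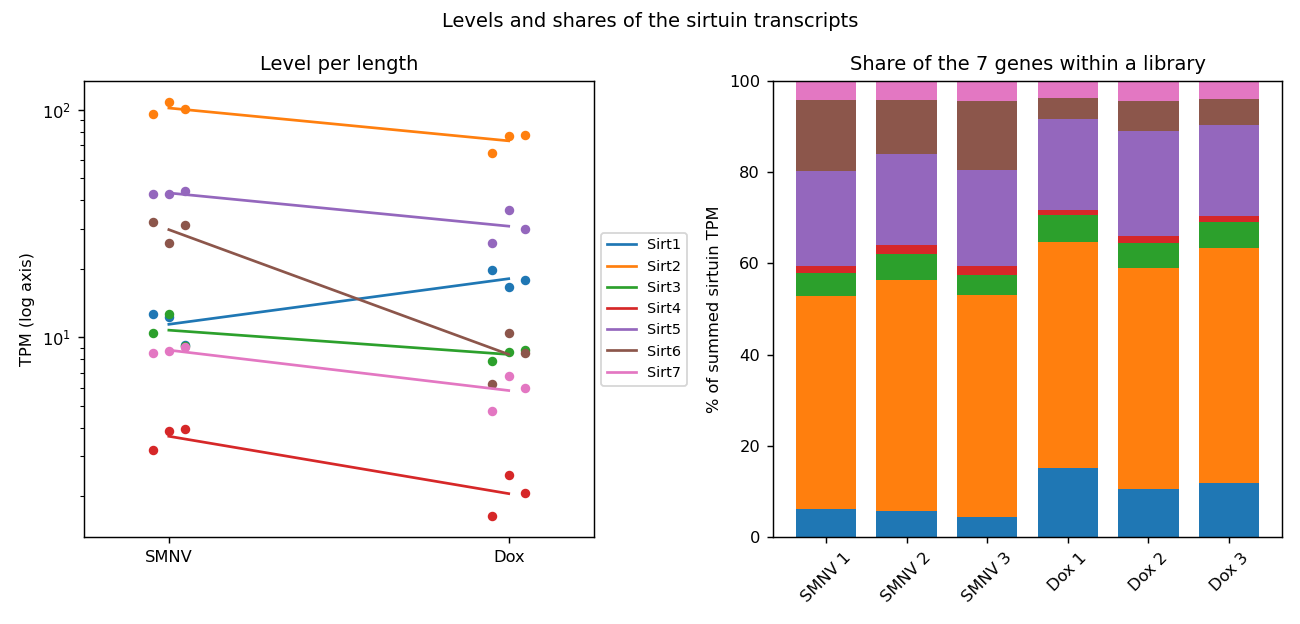
Left, TPM of the 7 sirtuin genes on a log axis, with points for libraries and lines joining the group means of SMNV and Dox; right, each gene's percent of the summed sirtuin TPM in each library. The lines of Sirt6 and Sirt1 cross, and the Sirt6 part of the bar is wider (12.0% to 15.6% in SMNV against 4.76% to 6.63% in Dox) while the Sirt1 part is narrower in SMNV.

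The count and TPM tables together give the transcript length behind each value, as the ratio of a gene's count to its TPM, scaled to the library's median and to the table's length. For Sirt2 this relative length was 1.30, 1.30 and 1.26 in SMNV libraries, against 1.47, 1.47 and 1.42 in Dox libraries, a mean lower by 11.6%. It was lower in every SMNV library than in any Dox library for Sirt3 (by 8.02%) and Sirt6 (by 7.06%) as well, and the groups overlapped for Sirt1, Sirt4, Sirt5 and Sirt7. Of the 11285 tested genes above 1 TPM in every library, 6.44% differed by more than 5% without overlap. The sources used here do not say which transcripts the authors' lengths stand for.

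Counts over the lists that follow stand beside the 30.5% of all tested genes that were higher, the 29.9% that were lower and their median log2 fold change of -0.01. Of 24 genes listed for NAD+ synthesis and salvage, 15 were tested; 3 rose, 3 fell and 9 missed the threshold, with a median log2 fold change of 0.07. The 3 that rose and the 3 that fell were 20% each of those tested; without Dox 3, or without SMNV 1, 5 rose. Nampt, the rate-limiting enzyme of salvage from nicotinamide, fell to 58.6 ± 0.920 CPM in SMNV, against 77.9 ± 5.71 CPM in Dox (SD, n = 3 each; log2 fold change -0.41 ± 0.07, SE; edgeR adjusted p = 1.55e-04). Its libraries did not overlap. Pnp, purine nucleoside phosphorylase, fell by 0.39 on the log2 scale, while Qprt of the de novo route rose by 0.78 and Nmnat3, a mitochondrial adenylyltransferase, rose by 0.79.

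Of 13 listed genes for other NAD+-consuming enzymes, 11 were tested; 7 fell, 3 rose and 1 missed the threshold, with a median log2 fold change of -0.35. That is 63.6% lower and 27.3% higher, beside 29.9% and 30.5% of all tested genes; with limma on log2(TPM + 1), 1 rose. The tankyrase genes Tnks and Tnks2 fell by 0.58 and 0.49, and Parp14, an interferon-linked mono-ADP-ribosyltransferase, fell by 0.50. Parp10 rose by 0.74. Parp1, the main DNA-damage-activated poly(ADP-ribose) polymerase, rose to 86.4 ± 1.44 CPM in SMNV, against 72.8 ± 7.08 CPM in Dox (SD, n = 3 each; log2 fold change 0.25 ± 0.07, SE; edgeR adjusted p = 0.00957); with limma on log2(TPM + 1) its 0.13 did not pass. Cd38, the ecto-NAD+ glycohydrolase, was scarce at 2.15, 2.95 and 2.17 CPM in SMNV libraries, against 3.56, 3.26 and 4.88 CPM in Dox libraries. Its groups did not overlap, and its fall of 0.68 ± 0.23 (SE; edgeR adjusted p = 0.0172) no longer passed without Dox 3, SMNV 1 or SMNV 3.

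Among 21 listed regulators of sirtuin genes and proteins, 17 were tested; 8 rose (47.1%), 6 fell (35.3%) and 3 missed the threshold, with a median of 0.04. Lmna, encoding lamin A and C, whose lamin A binds and stimulates SIRT1 and SIRT6, rose to 617 ± 63.3 CPM in SMNV, against 268 ± 40.3 CPM in Dox (SD, n = 3 each; log2 fold change 1.20 ± 0.10, SE; edgeR adjusted p = 1.51e-07). Ctbp1, a corepressor that with HIC1 holds down the SIRT1 gene, rose by 0.94 ± 0.08 (SE). Stk11, encoding the kinase LKB1, rose by 1.17 ± 0.11, and Stub1, encoding the ubiquitin ligase CHIP that stabilises SIRT6, rose by 0.71 ± 0.08 (SE). Transcripts of an inhibitor and an activator that bind SIRT1 directly both rose: the inhibitor Ccar2 was at 64.8 ± 4.16 CPM in SMNV and 49.0 ± 2.16 CPM in Dox, and the activator Rps19bp1 at 17.6 ± 0.958 CPM in SMNV and 11.6 ± 1.44 CPM in Dox (SD, n = 3 each). Their edgeR adjusted p-values were 2.77e-04 for Ccar2 and 3.32e-04 for Rps19bp1.

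Genes of the proteins that sirtuins deacylate were counted by compartment. Of 28 listed nuclear substrates, 26 were tested; 8 rose (30.8%), 6 fell (23.1%) and 12 missed the threshold, with a median of 0.09. Srebf1, the lipid synthesis factor, rose by 1.62 ± 0.11, Hsf1, the heat shock factor, by 0.85 ± 0.11, and Crtc2, a CREB coactivator, by 0.62 ± 0.10, while Nbn of the DNA break sensor fell by 0.49 ± 0.07 (log2, SE). Of the forkhead genes, Foxo4 rose by 0.21 (edgeR adjusted p = 0.0492), a call lost in 11 of 14 alternatives, among them each fit that left out a library; it was named after its value was seen. Foxo1 and Foxo3 did not pass: Foxo1 had a log2 fold change of -0.14 (edgeR adjusted p = 0.462) and Foxo3 of 0.23 (edgeR adjusted p = 0.122), which did pass without SMNV 2. Ppargc1a, the coactivator through which SIRT1 acts on mitochondria, was listed with the regulators and not with these substrates. It had 2, 3 and 2 counts in SMNV and 7, 2 and 5 counts in Dox libraries and was too scarce to test.

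Of 16 listed cytosolic substrates of SIRT1 and SIRT2, 14 were tested; 6 rose (42.9%), 3 fell (21.4%) and 5 missed the threshold, with a median of 0.08, while 5 fell with limma on log2(TPM + 1). The largest rises were in the mitotic substrates Cdc20, at 163 ± 12.5 CPM in SMNV and 29.4 ± 2.08 CPM in Dox, Fzr1, at 42.8 ± 4.31 CPM in SMNV and 9.25 ± 0.876 CPM in Dox, and Bub1b, at 120 ± 7.36 CPM in SMNV and 38.9 ± 2.11 CPM in Dox (SD, n = 3 each). Tuba1c, an alpha-tubulin gene whose reads may be shared with near-identical copies, rose by 0.99. Of 31 listed mitochondrial substrates, 27 were tested; 10 rose (37.0%), 9 fell (33.3%) and 8 missed the threshold, with a median of 0.06, while 5 rose with limma on log2(TPM + 1). Shmt2, a desuccinylation target of SIRT5, rose by 1.02 ± 0.09 (log2, SE). Idh2, deacetylated by SIRT3, rose by 0.61 ± 0.06 and Pycr1, of proline synthesis, by 0.80 ± 0.09, while Glud1, the glutamate dehydrogenase that SIRT4 inhibits, fell to 362 ± 2.38 CPM in SMNV, against 555 ± 31.8 CPM in Dox (SD, n = 3 each; edgeR adjusted p = 1.03e-06).

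All 15 listed partners of SIRT6 and SIRT7 and nucleolar substrates were tested, and 7 fell (46.7%), 3 rose (20%) and 5 did not pass, with a median of -0.27. The helicase gene Ddx21 fell to 99.0 ± 2.70 CPM in SMNV, against 136 ± 1.38 CPM in Dox (SD, n = 3 each). Smarca5, the chromatin remodeller that SIRT6 recruits to breaks, fell by 0.46, Elk4, the factor that brings SIRT7 to promoters, fell by 0.43, and Ncl, encoding nucleolin, fell by 0.39 on the log2 scale. Of the 10 glycolytic genes that SIRT6 holds down in mouse cells, 6 rose (60.0%), 2 fell (20%) and 2 did not pass, with a median of 0.29. Their summed level went the other way, at 1735 to 1864 CPM in SMNV and 2126 to 2290 CPM in Dox libraries. Most of that sum came from the 2 genes that fell, Ldha and Gapdh. Gapdh, named after its value was seen, had means of 895 CPM in SMNV and 1099 CPM in Dox. Pfkl rose by 1.26 ± 0.11, Slc2a1, the glucose transporter gene, by 0.75 ± 0.12 and Tpi1 by 0.34 ± 0.06, while Ldha, encoding lactate dehydrogenase A, fell to 487 ± 11.6 CPM in SMNV, against 777 ± 19.3 CPM in Dox (SD, n = 3 each; edgeR adjusted p = 2.80e-07).

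The enzyme families that share lysine acetylation with the sirtuins were set beside them. Hdac6 was also a listed cytosolic substrate, and Kat2a, Kat5 and Ep300 were also listed nuclear substrates, so each enters the counts of both lists. Of the 11 zinc-dependent deacetylase genes, all were tested; 5 rose (45.5%), 3 fell (27.3%) and 3 missed the threshold, with a median of 0.12; without SMNV 3, 1 fell. The class IIa genes Hdac7 and Hdac5 rose by 1.30 ± 0.11 and 1.02 ± 0.10 and Hdac10 rose by 0.90 ± 0.13, while Hdac1 of the nuclear corepressor complexes fell by 0.38 ± 0.07 (log2, SE). Of the 11 lysine acetyltransferase genes, all were tested; 4 rose (36.4%), 4 fell (36.4%) and 3 missed the threshold, with a median of 0.12, while 2 rose with limma on log2(TPM + 1). Kat8 rose by 0.47 and Kat5 by 0.33, and Hat1 fell by 0.43 and Kat6a by 0.29 on the log2 scale.

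**Figure D4:**
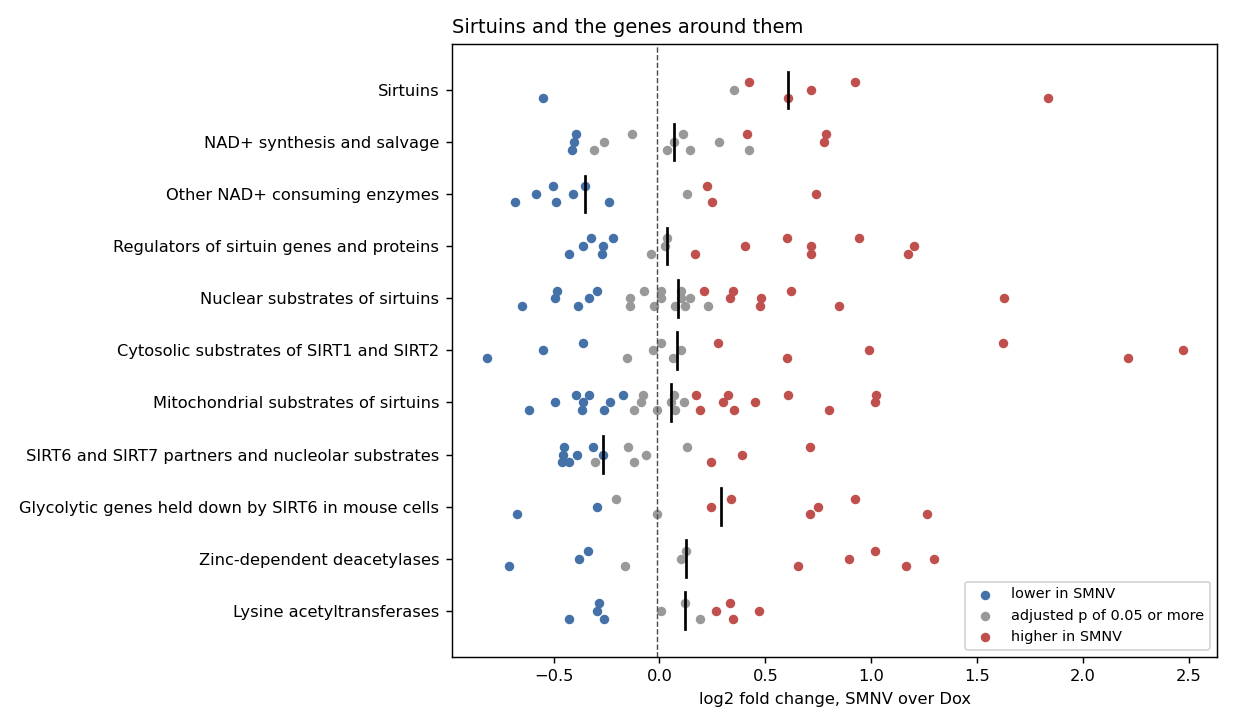
Log2 fold change, SMNV over Dox, of the tested genes of the sirtuin family and of 10 lists around it; red points passed the test as higher in SMNV, blue as lower and grey did not pass, short black bars are list medians and the dashed line is the median of all tested genes. The sirtuin median (0.61) lies right of the list medians, which run from -0.35 for other NAD+ consumers to 0.29 for the glycolytic genes.

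The genes whose profiles over the 6 libraries lay nearest to that of Sirt6, by Euclidean distance between centred log2 CPM among 9462 genes, were Sema3b (distance 0.187), Eme2 (0.206) and Zfp64 (0.243). Their log2 fold changes were 1.90, 1.78 and 1.80, beside 1.83 for Sirt6. Nearest to Sirt1 were Cdkn2aip (distance 0.0827), Phtf2 (0.113) and Ythdc2 (0.115), with log2 fold changes of -0.55, -0.51 and -0.54, beside -0.55 for Sirt1. These profiles were chosen for their likeness and carry no test.

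Reads of a gene and an overlapping or antisense neighbour cannot be told apart here, because the sources used here do not give the strand setting of the counting. The genes next to the sirtuins in RefSeq's GRCr8 annotation were therefore looked up by name. Beside Sirt1, Herc4 fell to 34.9 ± 1.42 CPM in SMNV, against 50.4 ± 3.43 CPM in Dox (SD, n = 3 each; log2 fold change -0.53 ± 0.08, SE; edgeR adjusted p = 4.97e-05), a size close to that of Sirt1. Beside Sirt6, Ankrd24 rose by 0.83 ± 0.16 (log2, SE), to 10.3 CPM in SMNV against 5.82 CPM in Dox. Beside Sirt2, Nfkbib, which is transcribed from the opposite strand, rose by 1.49 ± 0.19 (log2, SE), to 7.68 CPM in SMNV against 2.71 CPM in Dox, a small number of reads beside those of Sirt2. A further RefSeq gene model overlaps Sirt2 by 23028 bases on the same strand. It had no row under its name and was not analysed here. Beside Sirt3, the opposite-strand Ric8a rose by 0.70, to 50.8 CPM in SMNV against 31.3 CPM in Dox. Psmd13 had a log2 fold change of -0.01 (edgeR adjusted p = 0.902), at 89.6 CPM in SMNV and 90.2 CPM in Dox. Both lay above Sirt3 itself, at 9.01 CPM in SMNV and 7.06 CPM in Dox. The gaps to Sirt3 were 601 bases for Ric8a and 103 bases for Psmd13. Beside Sirt4, at a gap of 17146 bases, Pxn rose by 0.62, to 75.5 CPM in SMNV against 49.0 CPM in Dox, far above Sirt4. Beside Sirt5, Gfod1 rose by 1.31 and Nol7 had a log2 fold change of -0.03 (edgeR adjusted p = 0.757). Beside Sirt7, Pcyt2, on the same strand at a gap of 302 bases, rose by 0.66, to 34.3 CPM in SMNV against 21.8 CPM in Dox. That is a size close to the 0.71 of Sirt7. Mafg, at a gap of 6 bases, had a log2 fold change of -0.12 (edgeR adjusted p = 0.140), at 72.6 CPM in SMNV and 79.0 CPM in Dox. Both lay above Sirt7 itself, at 7.65 CPM in SMNV and 4.67 CPM in Dox. The part of any neighbour's reads in a sirtuin's count was not tested.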

How the data were processed

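The authors deposited estimated counts per gene, not normalized, and TPM per gene, both with a gene length in bases, per the file headers. Tools in the submitters' processing notes are HISAT2, HTSeq and fastp, with the build mRatBN7.2. The sources used here give no annotation release or strand setting, and no origin for the decimals in 17.9% to 18.8% of the values above 0. The estimated counts were rounded; whole counts had been assumed, and the test was kept. With edgeR 4.0.16 in R 4.3.3, the 12614 genes passing filterByExpr were scaled by TMM and compared by the quasi-likelihood test over all 6 libraries (two-sided, Benjamini-Hochberg over all tested genes, threshold 0.05). Positive log2 fold changes mean higher in SMNV, SE was derived from the fold change and its F statistic, and CPM are TMM-scaled. Members and lists were chosen with earlier results of these data known. Named were all sirtuins, up to 4 list members with the smallest p, and Nampt, Parp1, Cd38, Ccar2, Rps19bp1, Foxo1, Foxo3 and Ppargc1a whatever their value; a further gene under this rule is not reported here. For the sirtuins with the largest fold change each way, the 3 genes nearest in profile were named (mean of at least 5 CPM). Neighbouring genes are named by position. The scripts were tested on simulated data. Alternatives used DESeq2 1.42.0 and limma 3.58.1, other scalings and filters, length-trend offsets (span 0.5), a replicate block, each library left out, rows of one symbol summed, and CPM per kilobase for levels and shares.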

Additional observations from a re-analysis of the deposited data

How the results depend on the processing

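Under 18 alternatives, Sirt1, Sirt2, Sirt4, Sirt5, Sirt6 and Sirt7 kept their direction and their side of the threshold, and Sirt3 kept its direction. Sirt3 passed with RLE scaling (0.36, edgeR adjusted p = 0.0476), with upper-quartile scaling (0.36, edgeR adjusted p = 0.0487), with no filter (0.37, edgeR adjusted p = 0.0370) and without SMNV 3, and the fits that left out a library ran from 0.24 to 0.47; its adjusted p ran from 0.0212 to 0.218. No pairing by replicate number was seen (correlations of same-numbered deviations 0.00764, -0.116 and 0.00165). Those of differently numbered libraries ran from -0.132 to 0.138, and with 3 libraries a group the check cannot exclude pairing. With a replicate block Sirt6 was 1.85, Sirt1 -0.55 and Sirt3 0.35, with no call of a sirtuin changed. On log2(TPM + 1) the median of all genes was -0.10 and 39.8% of calls were higher, against 50.4% with edgeR on counts.

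With limma on log2(TPM + 1) and on log2(TPM + 0.1) alike, the list counts higher were 1 for other NAD+ consumers, 5 for mitochondrial substrates and 2 for acetyltransferases, and 5 cytosolic substrates were lower. For NAD+ synthesis the count higher was 5 with no filter and 3 to 5 when libraries were left out (5 without Dox 3 or SMNV 1), and 1 to 3 zinc-dependent deacetylases were lower then (1 without SMNV 3). With CPM per kilobase in place of TPM, the SMNV shares were 12.8% for Sirt6, 4.73% for Sirt1, 56.6% for Sirt2, 17.3% for Sirt5, 3.60% for Sirt3, 3.60% for Sirt7 and 1.46% for Sirt4, and the Dox shares were 60.5% for Sirt2, 16.1% for Sirt5, 5.06% for Sirt6, 10.02% for Sirt1, 4.05% for Sirt3, 3.13% for Sirt7 and 1.09% for Sirt4; Sirt7 then ranked 5 and Sirt3 ranked 6 in SMNV. When libraries were left out, Sirt1 and Sirt3 ranked 4 to 5 in SMNV, changing order without SMNV 1, and Sirt6 and Sirt3 ranked 4 to 5 in Dox, changing order without Dox 2. The causes were not tested. Sirt4, with 22 to 60 counts a library, is the member whose depth limits the estimate most.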
